A study of Homo sapiens with 6 samples.

Results

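The genes described here are noncoding genes named for lying antisense to another gene: their symbols end in -AS1, -AS2 or -AS3. They were chosen by symbol and by level, as genes of the platform's probe-gene table whose brightest probe set had a mean of at least 4 on the log2 scale over all 6 arrays. Symbols starting with HOX were left out, which removed 3 genes. Of 472 genes with such a symbol, 255 (54.0%) reached that level and 217 did not, and 14884 genes in all had a name. The level is the measured value that chose them, so it is given here only as a description. Just inside it lay DCTN1-AS1 (4.007), ARHGEF26-AS1 (4.013) and FAM167A-AS1 (4.059), and just outside it lay NALCN-AS1 (3.997), PRKCQ-AS1 (3.998) and FER1L6-AS1 (3.999). Of the 255 genes, 244 ended in -AS1, 9 in -AS2 and 2 in -AS3. RefSeq classes 252 of them as long noncoding RNA and 3 as antisense RNA.

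RNA was taken from SH-SY5Y, an established human neuroblastoma line with traits of sympathetic neurons, and measured on Affymetrix Human Gene 2.0 ST arrays. Mock cultures received the solvent methanol, another group received securinine at 30 µM and the last 16F16 at 4 µM, each for 24 h. Securinine is a plant alkaloid and 16F16 a synthetic compound, and the labels give both as inhibitors of protein disulfide isomerase, an enzyme of the endoplasmic reticulum that makes and shuffles the disulfide bonds of secreted proteins. Each group had 2 arrays, and the 2 compounds were given at different doses.

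Antisense noncoding genes are transcribed from the strand opposite to a neighbouring gene, often one that codes for protein. Some start beside the start of that neighbour and run away from it, so that both share a promoter region, and others overlap its body or its end. Members of this class are known to act on the neighbour in cis, by silencing or activating it, or to act elsewhere as long noncoding RNAs, and for many no role is known. Many such transcripts are turned over in the nucleus by the RNA exosome.

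Of the 255 antisense genes, 171 had a measured gene of the same stem (MCF2L for MCF2L-AS1), called the sense partner below, and 84 did not. The partners were 170 protein-coding genes and GAS5, itself a long noncoding RNA gene. In the RefSeq gene table all 171 pairs lay on the same chromosome, and the gene spans overlapped in 150 and were apart in 21. Start windows from RefSeq were held for both genes of 120 pairs, and all 120 ran on opposite strands. In 53 of them the nearest starts lay within 1 kb, and in 67 they lay farther apart.

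In 20 pairs the starts faced away from each other with at most 250 bases between them. The stretch between the 2 starts was 34 to 228 bases long, with a median of 109.5 bases and a median GC content of 68.9%. It is shown for the 6 pairs with a gene called with securinine, as described below. They are both genes called (SCOC and URB1), the antisense gene alone (HAND2, TMEM51 and UBAC2), and the partner alone (DPP10). The 14 pairs with neither gene called are not shown, so the boxes marked here cannot be set against theirs. The sequences are those of RefSeq on GRCh38.p14, written 5′ to 3′ on the strand of the antisense gene, so that its start follows the last base. Capitals mark a CCAAT box (CCAAT) or a GC box (GGGCGG) on either strand, and these 2 motifs were added to the search after the expression values had been seen. The stretch of HAND2-AS1, a plus-strand gene, lies at chr4:173530230-173530457, that of SCOC-AS1 (minus strand) at chr4:140373393-140373509, that of TMEM51-AS1 (minus strand) at chr1:15152465-15152565, that of UBAC2-AS1 (minus strand) at chr13:99200758-99200853, that of URB1-AS1 (plus strand) at chr21:32393013-32393132 and that of DPP10-AS1 (minus strand) at chr2:115161344-115161416.
HAND2-AS1: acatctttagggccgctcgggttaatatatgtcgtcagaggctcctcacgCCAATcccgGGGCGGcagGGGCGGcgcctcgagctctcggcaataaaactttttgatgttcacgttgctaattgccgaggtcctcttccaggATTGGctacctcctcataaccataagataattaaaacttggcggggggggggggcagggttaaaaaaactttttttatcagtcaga
SCOC-AS1: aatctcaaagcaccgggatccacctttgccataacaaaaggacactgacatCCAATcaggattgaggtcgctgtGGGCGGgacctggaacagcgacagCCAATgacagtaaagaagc
TMEM51-AS1: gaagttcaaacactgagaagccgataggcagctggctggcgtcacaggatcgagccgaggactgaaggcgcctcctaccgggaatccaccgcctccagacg
UBAC2-AS1: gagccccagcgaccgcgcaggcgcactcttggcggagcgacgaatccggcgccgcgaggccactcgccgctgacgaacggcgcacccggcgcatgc
URB1-AS1: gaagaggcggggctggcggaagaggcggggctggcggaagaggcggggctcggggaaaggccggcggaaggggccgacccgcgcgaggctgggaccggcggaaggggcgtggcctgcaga
DPP10-AS1: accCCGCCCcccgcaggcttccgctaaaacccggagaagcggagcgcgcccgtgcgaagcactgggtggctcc

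The HAND2-AS1 stretch holds both kinds of box, SCOC-AS1 holds both, DPP10-AS1 holds a GC box, and the other 3 hold neither in these letters. Over whole start windows (250 bases before to 50 after a start), 204 of the 255 antisense genes were matched, with 245 windows. Their windows had a median of 22 CpG and 64.3% GC, beside 14 CpG and 58.7% GC over all 35116 windows of the table. On both strands, GGGCGG was found in 53.9% of antisense windows and 45.0% of all windows, and CCAAT in 33.1% and 34.6%. The antioxidant response element core TGACNNNGC was found in 19.6% and 13.3%, the E-box CACGTG in 8.57% and 7.26%, and the heat shock element GAANNTTC in 7.35% and 6.77%. The TATA box TATAAA was found in 6.94% and 11.5%, the cAMP response element TGACGTCA in 1.63% and 1.85%, and the C/EBP-ATF response element TGATGNAA in 0.816% and 3.62%. Among windows of antisense genes higher and lower with securinine, TGACNNNGC was found in 3 of 20 and 4 of 24, GGGCGG in 11 and 9, CCAAT in 5 and 5, CACGTG in 2 and 0, TATAAA in 2 and 0, GAANNTTC in 1 and 2, and TGACGTCA and TGATGNAA in 0 of both. A match of letters is a description and says nothing of binding.

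Across all probe sets the arrays were alike in scale, with array medians of 4.16 to 4.23, and arrays of a group correlated at 0.986 to 0.990 against 0.979 to 0.986 between groups. Of 16 listed noradrenergic markers of the line 14 were measured, and all had a mean of at least 4. Among them were DBH (12.24), HAND2 (11.23) and GATA3 (11.03). The lowest was TH (5.32), under the median of all named genes (5.65). Of 11 epithelial, blood and endothelial markers 6 were measured, with group medians of 4.43 to 4.73. Of 7 fibroblast and Schwann cell markers 3 were measured, with group medians of 3.80 to 4.42. The highest means in these other lists were KRT18 (6.77) and LUM (6.09), so a mean of 4 does not tell the lists apart. With securinine 7 of the 14 noradrenergic markers fell, beside 10.6% of all named genes, and 1 rose. With 16F16, DDC, CHGA and CHGB fell (3 of 14, 21.4%, beside 0.779% of all named genes lower). Of the 6 epithelial, blood and endothelial markers, 1 rose with securinine (16.7%, beside 8.4% of all named genes higher) and 0 fell. It was the monocyte marker CD14, at 0.57 ± 0.14 (limma adjusted p = 0.038), while the median of these 6 was -0.058. What part the markers of these lists had in the results below was not tested. In RNA from whole cultures, fewer cells of a type and less RNA per cell cannot be told apart. The labels do not say how the cultures of a group were separated, so p-values measure the spread between these samples.

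The antisense genes spanned means of 4.01 to 9.60, with a median of 5.11, and 0 of them were within the lower quartile of probe sets on any array. Levels of 8 or more were reached by 5 genes, 51 genes were at 6 or more and 116 were under 5. Values of different probe sets also depend on their probes, so they give no order of abundance. HAND2-AS1 had the highest deposited mean, and it starts beside HAND2, a transcription factor of sympathetic neurons. HAND2-AS1 measured 9.72 and 9.87 in mock, 9.37 and 9.47 with securinine, and 9.60 and 9.60 with 16F16. Both securinine arrays lay under both mock arrays, and the gene fell by 0.38 ± 0.09 with securinine (SE of the fit, limma adjusted p = 0.037). That call was kept in 5 of 14 alternative analyses and was lost with any 1 array left out. HAND2 itself differed by -0.04 with securinine, with a 95% interval of -0.25 to 0.16. The other 7 genes named for a high deposited mean were PITPNA-AS1 (mean 8.78), FGD5-AS1 (8.58), PCNA-AS1 (8.09), URB1-AS1 (8.08), ZNF667-AS1 (7.99), DHRS4-AS1 (7.75) and WAC-AS1 (7.41). PITPNA-AS1 differed by -0.05 ± 0.08 with securinine and 0.10 ± 0.08 with 16F16, and FGD5-AS1 by -0.10 ± 0.08 and 0.15 ± 0.08, and neither passed. PCNA-AS1 was at -0.26 ± 0.09 with securinine (adjusted p = 0.095), beside its partner PCNA, the DNA replication clamp, at -0.18 ± 0.07 (adjusted p = 0.16).

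The first comparison asked what securinine did to these genes. With securinine 46 of the 255 antisense genes (18.0%) were called at an adjusted p under 0.05, 23 higher and 23 lower. Over all named genes the same rule called 19.0%, with 8.4% higher and 10.6% lower, so the share of antisense genes called lay near that of all genes. The median difference was -0.006 over the antisense genes and -0.035 over all named genes, and the median size of a difference was 0.191 in both. A change of at least 2-fold and a call were found for 5 antisense genes that rose (1.96%, beside 0.705% of all named genes) and 3 that fell (1.18%, beside 1.45%). All 46 called genes had both securinine arrays beyond both mock arrays. With 2 arrays a group a call makes this likely, so it adds no support, and its share over all genes was not counted. Calls were more frequent at higher levels in both sets. At a level of 6 or more 20 of 51 antisense genes (39.2%) and 31.5% of all genes were called, from 5 to 6 it was 14 of 88 (15.9%) and 18.8%, and from 4 to 5 it was 12 of 116 (10.3%) and 8.74%. Of the 255 genes, 237 had all 3 group means at 4 or more, and 4 of the 18 others were among the called. The count depended on single arrays. The share of all named genes called in the same fits is not given here, so the drop cannot be set beside that of all genes. Without mock replicate 1 the called numbered 11, without mock replicate 2 they numbered 10, without securinine replicate 1 they numbered 11 and without securinine replicate 2 they numbered 17. The 7 genes that kept the call in all 14 alternative analyses were PARD6G-AS1, PSMD6-AS2, NUTM2A-AS1, RBM5-AS1, FBXL19-AS1, MCF2L-AS1 and TSPEAR-AS2.

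**Figure D1:**
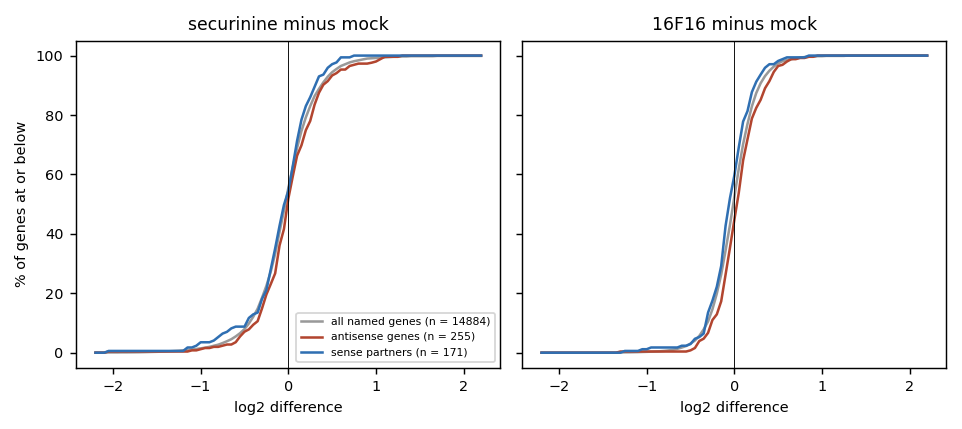
Cumulative percentage of genes (vertical axis, % at or below) by log2 difference from mock (horizontal axis), with securinine on the left and 16F16 on the right, for all 14884 named genes, the 255 antisense genes and the 171 sense partners. At 0 the curves stand at 55.4%, 51.8% and 54.4% with securinine and at 52.4%, 44.7% and 59.6% with 16F16, and at -0.80 with securinine at 2.69%, 1.96% and 5.26%.

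The largest change was the fall of MCF2L-AS1. Its sense partner is MCF2L. MCF2L-AS1 measured 7.08 and 7.05 in mock, 5.00 and 4.98 with securinine, and 7.01 and 6.91 with 16F16. The securinine arrays stood alone below the other 4, and the gene fell by 2.07 ± 0.08 with securinine, a 4.21-fold fall (adjusted p = 0.0011). With 16F16 the difference was -0.11 ± 0.08 (adjusted p = 0.50), and 16F16 against securinine differed by 1.97 ± 0.08 (adjusted p = 0.0080). MCF2L measured 5.84 and 5.81 in mock, 5.78 and 5.84 with securinine, and 5.81 and 5.87 with 16F16. These values overlapped in all 3 groups, and the 95% interval of the securinine difference was -0.21 to 0.18.

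Falling second most was TSPEAR-AS2, antisense to TSPEAR, a gene mutated in ectodermal dysplasia. TSPEAR-AS2 measured 7.25 and 7.28 in mock, 6.07 and 6.22 with securinine, and 5.96 and 5.88 with 16F16. Both treated groups lay below mock without overlap. It fell by 1.12 ± 0.09 with securinine (adjusted p = 0.0032) and by 1.35 ± 0.09 with 16F16 (adjusted p = 0.024). The 2 comparisons share the mock arrays. TSPEAR was at -0.23 with securinine (95% interval -0.65 to 0.18).

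The other named falls with securinine lay between 0.54 and 1.02. PRKAG2-AS1, named for a regulatory subunit of the energy-sensing kinase AMPK, measured 4.68 and 4.56 in mock and 3.49 and 3.71 with securinine. It was lower by 1.02 ± 0.15. Its securinine mean was under the level of 4, so it reached that level through the other arrays. The difference is given as a description. EPB41L4A-AS1 fell by 0.88 ± 0.11, and it is antisense to a FERM-domain protein of the band 4.1 family. DHRS4-AS1, antisense to a carbonyl reductase, fell by 0.79 ± 0.12, and its weaker probe set was at -0.65. DHRS4 itself was at -0.32 (95% interval -0.77 to 0.13). DCST1-AS1 fell by 0.70 ± 0.10 and WDR86-AS1 by 0.63 ± 0.12. ST7-AS1 fell by 0.59 ± 0.10, SBF2-AS1 by 0.58 ± 0.08, GALNT9-AS1 by 0.58 ± 0.13, FGF14-AS2 by 0.56 ± 0.09 and TMPO-AS1 by 0.54 ± 0.14. Of the 23 genes that fell, 20 had a measured partner, and the falls had a median of -0.54.

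PARD6G-AS1 rose most. It is named for PARD6G, a polarity adaptor of the PAR6 family. PARD6G-AS1 measured 4.92 and 4.54 in mock, 6.01 and 6.01 with securinine, and 5.00 and 4.87 with 16F16. The securinine arrays stood above the other 4, which overlapped. It rose by 1.28 ± 0.14 with securinine, a 2.44-fold rise (adjusted p = 0.0052), while PARD6G was at -0.18 (95% interval -0.45 to 0.10).

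PSMD6-AS2, named for a subunit of the proteasome's regulatory particle, measured 4.18 and 4.13 in mock, 5.25 and 5.25 with securinine, and 4.56 and 4.62 with 16F16. The 16F16 arrays lay between the other groups. It rose by 1.09 ± 0.08 with securinine (adjusted p = 0.0024), and the 16F16 difference of 0.43 ± 0.08 did not pass (adjusted p = 0.061). NUTM2A-AS1 measured 4.10 and 4.32 in mock, 5.31 and 5.23 with securinine, and 4.95 and 4.92 with 16F16. It rose with both compounds, by 1.06 ± 0.10 (adjusted p = 0.0042) and 0.72 ± 0.10 (adjusted p = 0.042).

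RBM5-AS1 is antisense to RBM5, a regulator of splicing. RBM5-AS1 measured 4.32 and 4.29 in mock, 5.43 and 5.26 with securinine, and 4.11 and 3.85 with 16F16. The order of the groups put 16F16 lowest and securinine highest, with no overlap. It rose by 1.04 ± 0.12 with securinine (adjusted p = 0.0059), and the 16F16 difference of -0.32 ± 0.12 did not pass (adjusted p = 0.21). Its 16F16 mean was under the level of 4, so it reached that level through the other arrays. The difference of 16F16 against securinine, -1.37 ± 0.12, is given as a description. RBM5 stayed between 7.83 and 7.96 on all 6 arrays, with a 95% interval for securinine of -0.11 to 0.28.

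FBXL19-AS1 is antisense to FBXL19, an F-box protein that binds unmethylated CpG islands. FBXL19-AS1 measured 5.35 and 5.24 in mock, 6.33 and 6.21 with securinine, and 5.82 and 5.96 with 16F16. All treated arrays lay above mock, and it rose by 0.98 ± 0.10 with securinine (adjusted p = 0.0044), while the 16F16 difference of 0.60 ± 0.10 missed the threshold (adjusted p = 0.055). FBXL19 was at -0.05 with securinine (95% interval -0.29 to 0.19).

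Other named rises with securinine were SCOC-AS1 (1.01 ± 0.24), KIF9-AS1 (0.91 ± 0.15), antisense to a kinesin, DLGAP1-AS1 (0.78 ± 0.18), TPT1-AS1 (0.71 ± 0.09), SH3BP5-AS1 (0.67 ± 0.14), TMEM51-AS1 (0.66 ± 0.08) and MAGI2-AS3 (0.65 ± 0.14). SCOC-AS1 had the widest spread among them, at 4.79 and 5.43 in mock and 6.32 and 5.92 with securinine. MAGI2-AS3 was read by 2 probe sets that went opposite ways: the brighter was at 0.65 and the dimmer at -0.71, and their mean was at -0.03. Over all 255 genes 20 had several probe sets, and in 10 of them the probe sets lay on both sides of 0. Of the 23 genes that rose, 13 had a measured partner, and the rises had a median of 0.65.

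The 11 other rises lay between 0.36 and 0.56 and the 11 other falls between 0.31 and 0.53 in size. Among these falls were C10orf95-AS1 and PDCD4-AS1, each at -0.42 on its brighter probe set. Their dimmer probe sets were at 0.01 and 0.16, and both genes lost the call in the mean over probe sets. THAP9-AS1, antisense to a gene related to the P element transposase, measured 5.93 and 5.89 in mock, 6.50 and 6.45 with securinine, and 5.85 and 5.79 with 16F16. Only its securinine arrays stood apart, and it rose by 0.56 ± 0.08 (adjusted p = 0.0092), with THAP9 at 0.05 ± 0.16. INKA2-AS1 measured 6.50 and 6.59 in mock, 6.97 and 7.04 with securinine, and 7.06 and 7.30 with 16F16, and all treated arrays lay above mock. Chosen after its values were seen, NIFK-AS1 had the smallest fall, 0.31 ± 0.08 (adjusted p = 0.042). Its partner NIFK, a nucleolar protein that binds Ki-67, was at -0.28 ± 0.07 (adjusted p = 0.051), so the pair lay on either side of the threshold with differences of about the same size. Likewise chosen, NAPA-AS1 measured 6.12 and 6.26 in mock, 5.72 and 5.62 with securinine, and 6.27 and 6.23 with 16F16, a fall of 0.53 ± 0.09 with securinine (adjusted p = 0.015) beside 0.06 ± 0.09 with 16F16 (adjusted p = 0.76).

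**Figure D2:**
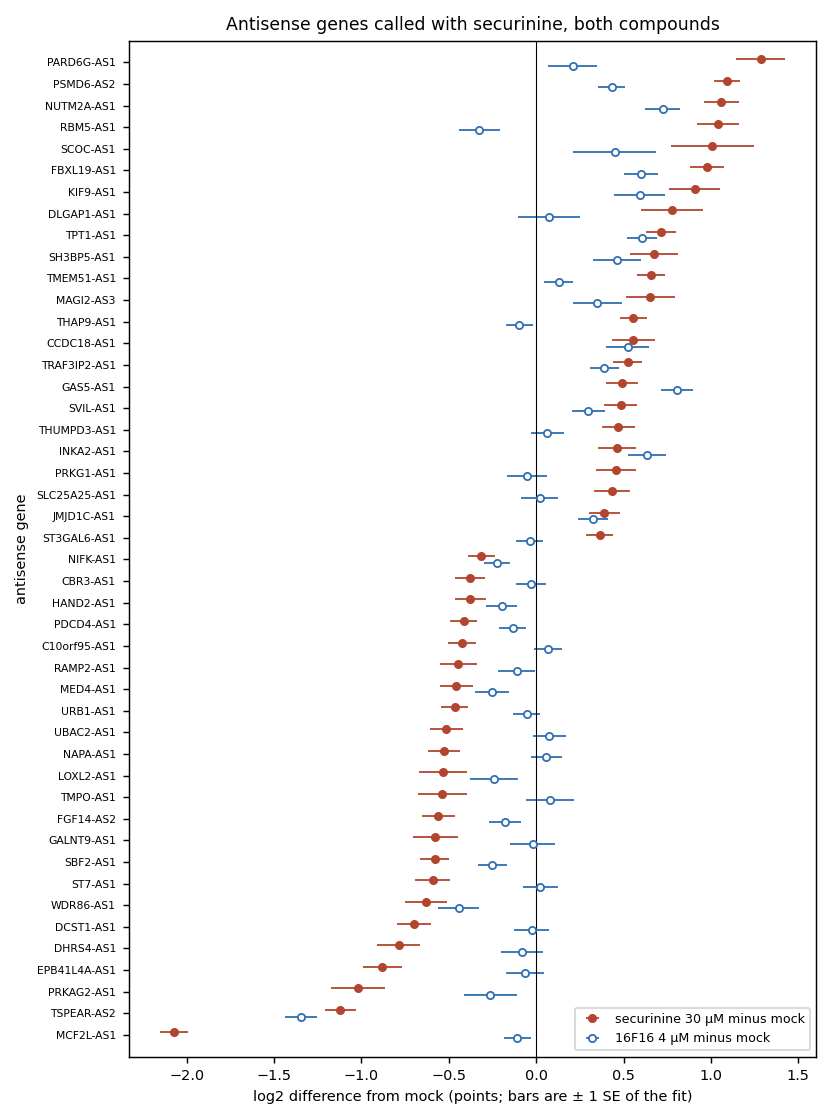
Log2 difference from mock (horizontal axis) of the 46 antisense genes called with securinine (one row each), for securinine (filled) and 16F16 (open), with bars of 1 SE. The rises with securinine reach 1.28 and the falls -2.07, and 11 of the 23 falls have an open point under 0.1 in size, while that of TSPEAR-AS2 is at -1.35.

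The second comparison asked the same of 16F16. With 16F16, 4 of the 255 antisense genes (1.57%) were called, 3 higher and 1 lower, beside 1.5% of all named genes, 0.719% higher and 0.779% lower. The median difference was 0.029 over the antisense genes and -0.012 over all named genes, and 44 antisense genes (17.3%) had an unadjusted p under 0.05, beside 21.1% of all named genes. No call was left when any 1 of the 6 arrays was left out. GAS5-AS1 is antisense to GAS5, a host gene of small nucleolar RNAs. GAS5-AS1 measured 5.08 and 5.26 in mock, 5.64 and 5.68 with securinine, and 5.97 and 5.98 with 16F16. The 3 groups did not overlap, with 16F16 highest. It rose by 0.80 ± 0.09 with 16F16 (adjusted p = 0.033) and by 0.49 ± 0.09 with securinine (adjusted p = 0.020), and GAS5 was at 0.19 ± 0.09 and 0.22 ± 0.09 without passing.

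TPT1-AS1, named for the translationally controlled tumour protein, measured 5.59 and 5.55 in mock, 6.29 and 6.27 with securinine, and 6.10 and 6.25 with 16F16. All treated arrays lay above mock, and it rose by 0.60 ± 0.09 with 16F16 (adjusted p = 0.043) and by 0.71 ± 0.09 with securinine (adjusted p = 0.0067). TSPEAR-AS2 and NUTM2A-AS1, given above, were the other 2 called genes. The comparisons with mock share its 2 arrays. The genes next in order of p were FBXL19-AS1 and INKA2-AS1 (0.63 ± 0.11, adjusted p = 0.059). CPB2-AS1, chosen after its values were seen, had the largest rise in size with 16F16 at 0.90 and did not pass (adjusted p = 0.15). The 23 antisense genes that rose with securinine had 16F16 differences of -0.32 to 0.80 with a median of 0.35, and 6 of them were under 0.1 in size. The 23 that fell had 16F16 differences of -1.35 to 0.08 with a median of -0.11, and 11 of them were under 0.1 in size.

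Set directly against each other, at their different doses, 16F16 and securinine differed in 19 of 255 antisense genes (7.45%), beside 9.51% of all named genes. In 12 the 16F16 arrays were higher (5.55% of all genes) and in 7 they were lower (3.96% of all genes). This comparison shares its arrays with the 2 above, so the values are given side by side. Among the called genes, the largest differences were MCF2L-AS1 and RBM5-AS1, given above, then PARD6G-AS1 (-1.08 ± 0.14), EPB41L4A-AS1 (0.82 ± 0.11), PRKAG2-AS1 (0.76 ± 0.15), DHRS4-AS1 (0.71 ± 0.12) and DCST1-AS1 (0.67 ± 0.10). ST7-AS1 followed at 0.62 ± 0.10, and PSMD6-AS2 (-0.66 ± 0.08), THAP9-AS1 (-0.65 ± 0.08), TMEM51-AS1 (-0.53 ± 0.08) and ADAMTS9-AS2 (-0.53 ± 0.09) were lower with 16F16. The securinine mean of PRKAG2-AS1 and the 16F16 mean of RBM5-AS1 were under the level of 4, so their differences are given as a description. ADAMTS9-AS2 was called here without passing in either comparison with mock. With 1 array left out the called numbered 0 to 5 in place of 19: 0 without either securinine array or 16F16 replicate 1, 2 without 16F16 replicate 2, and 5 without either mock array.

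The sense partners were set beside their antisense genes. Of the 171 partners, 33 (19.3%, beside 19.0% of all named genes) were called with securinine, 12 higher (7.02%, beside 8.4%) and 21 lower (12.3%, beside 10.6%), a share near that of all genes. With 16F16, 6 (3.51%, beside 1.5%) were called, 2 higher and 4 lower, of which 0 were left when any 1 array was left out. The strand that each probe set reads is not stated in the sources used here. In 22 pairs only the antisense gene was called with securinine, in 22 only the partner, in 11 both, and in 116 neither. The 2 differences had the same sign in 83 of 171 pairs. Across the 171 pairs, which share the same 6 arrays, Pearson's r was 0.14 and Spearman's rho 0.13. In the 53 pairs with starts within 1 kb r was 0.28 and rho 0.36, with the same sign in 33, and in the 67 pairs with starts farther apart r was 0.21 and rho 0.09, with the same sign in 30. In the 20 pairs with facing-away starts r was 0.35, and 12 had the same sign. With 16F16, r over the 171 pairs was 0.01. By limma 2 pairs had the antisense gene alone called, 6 the partner alone and 0 both. At an unadjusted p under 0.05 there were 44 antisense genes (17.3%) and 45 partners (26.3%), beside 21.1% of all named genes.

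**Figure D3:**
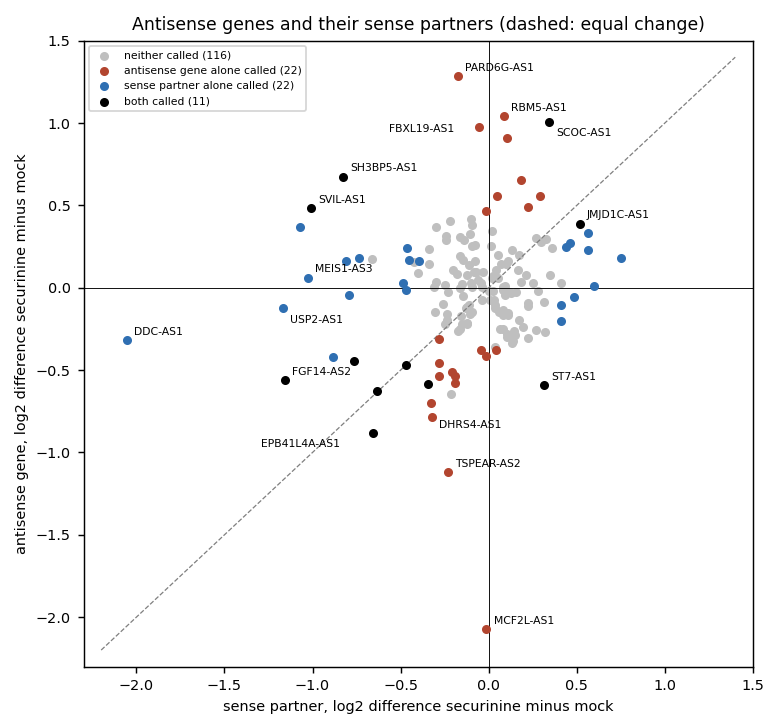
Log2 difference, securinine minus mock, of each antisense gene (vertical axis) against that of its sense partner (horizontal axis) for 171 pairs, coloured by which of the 2 genes was called. Most called points lie along one axis or the other, with MCF2L-AS1 (-2.07, partner -0.01) and DDC-AS1 (-0.32, partner -2.05) at the ends.

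In 3 pairs the 2 genes were called in opposite directions. SH3BP5 is an exchange factor for the trafficking GTPase RAB11. SH3BP5-AS1 measured 4.20 and 4.37 in mock and 4.80 and 5.12 with securinine, while SH3BP5 measured 6.47 and 6.58 in mock and 5.63 and 5.76 with securinine. Neither gene's groups overlapped: the antisense gene rose by 0.67 ± 0.14 (adjusted p = 0.025) and the partner fell by 0.83 ± 0.09 (adjusted p = 0.0050). SVIL encodes supervillin, which binds actin at the membrane. SVIL-AS1 measured 7.08 and 7.10 in mock and 7.67 and 7.48 with securinine, while SVIL measured 5.99 and 5.86 in mock and 5.07 and 4.76 with securinine. SVIL-AS1 rose by 0.48 ± 0.09 (adjusted p = 0.022) and SVIL fell by 1.01 ± 0.13 (adjusted p = 0.0070). The third pair went the other way, ST7-AS1 from 4.96 and 4.89 to 4.41 and 4.26, and ST7 from 6.96 and 6.87 to 7.22 and 7.25, a rise of 0.32 ± 0.08 (adjusted p = 0.044). The call of ST7 was kept in 3 of 14 alternatives and was lost with any 1 array left out, with median centring, with quantile normalization and with the replicate block (adjusted p up to 0.19), and that of ST7-AS1 was kept in 9. With 16F16 none of these 6 genes was called, with SH3BP5-AS1 at 0.46 ± 0.14 and SH3BP5 at -0.27 ± 0.09.

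In 8 pairs both genes were called in the same direction, 6 lower and 2 higher. EPB41L4A-AS1 measured 6.99 and 7.04 in mock and 6.02 and 6.25 with securinine, and EPB41L4A measured 6.01 and 5.88 in mock and 5.38 and 5.20 with securinine. Both fell without overlap, EPB41L4A by 0.66 ± 0.10 (adjusted p = 0.011), and with 16F16 they were at -0.06 ± 0.11 and 0.12 ± 0.10. URB1, a ribosome biogenesis factor, and URB1-AS1 each fell by 0.47 ± 0.08, and they share the GC-rich start stretch printed above. WDR86 fell by 0.64 ± 0.08 beside WDR86-AS1. SBF2, a myotubularin-related protein, fell by 0.35 ± 0.08 beside SBF2-AS1. RAMP2, a partner of the calcitonin receptor-like receptor, fell by 0.76 ± 0.08 and RAMP2-AS1 by 0.45 ± 0.11. FGF14, an intracellular regulator of sodium channels, fell by 1.16 ± 0.10 beside FGF14-AS2. Those that rose together were SCOC, a Golgi coiled-coil protein (0.34 ± 0.09, adjusted p = 0.044), with SCOC-AS1, and JMJD1C, a JmjC-domain protein (0.52 ± 0.09), with JMJD1C-AS1 (0.39 ± 0.09). Of 14 alternatives, SCOC kept its call in 3, with none of those leaving out 1 array (adjusted p up to 0.18), SCOC-AS1 in 6 (up to 0.16) and SBF2 in 5 (up to 0.16).

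**Figure D4:**
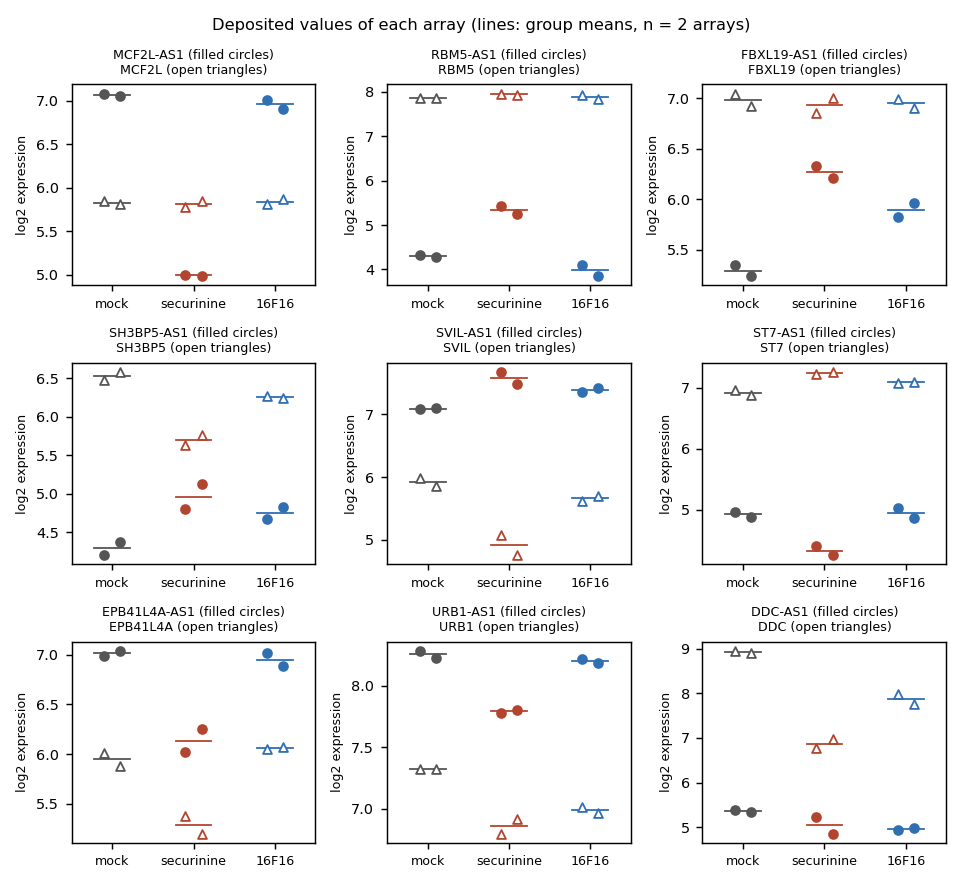
Deposited log2 values of every array (vertical axis) by treatment (horizontal axis) for 9 antisense genes (filled circles) and their sense partners (open triangles), with lines at the group means of 2 arrays. MCF2L-AS1 drops from 7.08 and 7.05 to 5.00 and 4.98 with securinine while MCF2L stays between 5.78 and 5.87, and DDC falls with both compounds.

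The partners that were called alone were looked at after their values had been seen. DDC makes dopamine from L-DOPA. It measured 8.95 and 8.90 in mock, 6.77 and 6.98 with securinine, and 7.98 and 7.76 with 16F16. The 3 groups did not overlap, and DDC fell by 2.05 ± 0.12 with securinine (adjusted p = 0.0018) and by 1.06 ± 0.12 with 16F16 (adjusted p = 0.030). DDC-AS1 measured 5.40 and 5.34 in mock, 5.24 and 4.86 with securinine, and 4.94 and 4.99 with 16F16, and at -0.32 with securinine (95% interval -0.66 to 0.02) it did not pass. The homeobox factor MEIS1 fell by 1.03 ± 0.08 with securinine (adjusted p = 0.0029) and by 0.98 ± 0.08 with 16F16 (adjusted p = 0.025), while MEIS1-AS3 was at 0.06 (95% interval -0.25 to 0.37) and 0.08. VLDLR, a receptor for reelin and lipoproteins, fell by 0.88 ± 0.08 and 0.65 ± 0.08, and VLDLR-AS1 was at -0.42 ± 0.17 and -0.29 ± 0.17 without passing. The dimmer probe set of VLDLR-AS1 was at -0.62 with securinine and -0.64 with 16F16. FGF14 fell with 16F16 as well, by 1.27 ± 0.10 (adjusted p = 0.025), when FGF14-AS2 was at -0.18 ± 0.09.

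The deubiquitinase USP2 fell by 1.17 ± 0.10 with securinine, with USP2-AS1 at -0.12 (95% interval -0.37 to 0.12). ASMTL fell by 1.07 ± 0.10 with ASMTL-AS1 at 0.37 ± 0.15, the agrin receptor LRP4 by 0.81 ± 0.09 with LRP4-AS1 at 0.16 ± 0.18, and the potassium channel subunit DPP10 by 0.79 ± 0.09 with DPP10-AS1 at -0.05 ± 0.12. CIRBP, a cold-inducible RNA-binding protein, fell by 0.73 ± 0.09 on its brighter probe set and was at 0.08 in the mean of both. Partners that rose alone included the zinc finger gene ZNF436 (0.75 ± 0.10) and the netrin receptor UNC5B (0.60 ± 0.08). UNC5B and the ubiquitin ligase RNF213 were the 2 partners that rose with 16F16, by 0.55 ± 0.08 (adjusted p = 0.048) and 0.82 ± 0.09 (adjusted p = 0.031). RNF213-AS1 was at -0.34 ± 0.13 and UNC5B-AS1 at -0.27 ± 0.13, and neither passed. In 10 partners the securinine call held in all 14 alternatives: ASMTL, DDC, DPP10, FGF14, LRP4, MEIS1, RAMP2, SH3BP5, USP2 and VLDLR.

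Among the 20 pairs with facing-away starts, the antisense gene was called with securinine in 5 and the partner in 3. Over all named genes 19.0% were called, and 20 pairs are too few to compare shares. Both were called in 2 pairs, the antisense gene alone in 3, the partner alone in 1, and neither in 14. TMEM51-AS1 measured 5.15 and 5.24 in mock, 5.83 and 5.87 with securinine, and 5.28 and 5.37 with 16F16, so the securinine arrays stood above the rest. Its partner TMEM51 was at 0.18 (95% interval -0.07 to 0.44). UBAC2-AS1 fell by 0.51 ± 0.10 and UBAC2 was at -0.21 (95% interval -0.43 to 0.02).

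The 84 antisense genes without a measured partner held 10 of the rises and 3 of the falls with securinine (15.5% called), beside 13 and 20 among the 171 with one (19.3%). Over all named genes 19.0% were called. Of the 11 genes ending in -AS2 or -AS3 (36.4% called), PSMD6-AS2 rose with securinine, as did MAGI2-AS3 on its brighter probe set alone. TSPEAR-AS2 and FGF14-AS2 fell, and 7 did not pass. A set of 11 genes is too small to compare shares.

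Genes that handle noncoding and antisense transcripts were counted from lists. A list of 22 symbols held the nuclear exosome, its cofactors and XRN2, an exonuclease outside the exosome. Of these 16 were measured, and with securinine 0 rose and 2 fell by limma (12.5%, beside 10.6% of all named genes lower). An unadjusted p under 0.05 was found for 4 of the 16, beside 33.6% of all named genes. The 2 called lower were the exosome ring subunit EXOSC5 (-1.23 ± 0.09, adjusted p = 0.0026) and the nuclear 5′ to 3′ exonuclease XRN2 (-0.42 ± 0.08, adjusted p = 0.022). XRN2 also fell with 16F16, by 0.55 ± 0.08 (adjusted p = 0.046), and EXOSC5 was at -0.33 ± 0.09. The list's median was -0.137 with securinine, beside -0.035 over all named genes. Of 12 genes of RNA editing and small RNA processing 3 were measured, and DGCR8, the partner of DROSHA in microRNA processing, rose by 0.84 ± 0.15. Of 12 termination, Integrator and cap-binding genes 8 were measured, and INTS6 (0.51 ± 0.07) and SRRT (0.32 ± 0.07) rose. Of 6 chromatin regulators that bind long noncoding RNA 5 were measured, and the demethylase KDM1A (-0.42 ± 0.08) and the DNA methyltransferase DNMT1 (-0.39 ± 0.09) fell. The 4 lists together had 7 of 32 genes called with securinine (21.9%), near the 19.0% of all named genes.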

How the data were processed

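The authors deposited log2 expression values of 53617 probe sets on 6 arrays, and the submitters' processing notes name RMA and limma without versions. Not given in the sources used here were the array's genome build, its annotation release and the strand each probe set reads, so sense and antisense signal rest on the probe set's name. Probe sets were named through the platform annotation (16098 with 1 symbol, 37519 unnamed), and the brightest of several probe sets of a gene was taken. Levels of different probe sets give no order of abundance.

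Each of 14884 genes was tested on all 6 arrays with limma 3.58.1 in R 4.3.3 (lmFit, eBayes, group means, with 3 residual and 2.68 prior degrees of freedom). Two-sided p-values were adjusted over all 14884 genes (Benjamini-Hochberg), with a call at an adjusted p under 0.05. Errors are the SE of the fit with 2 arrays a group, with a median of 0.11, so the number of arrays limits the precision. The script was tested on simulated data. Replicate numbers did not pair the arrays: deviations of same-numbered arrays correlated at -0.032, 0.038 and -0.05 between groups.

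The antisense genes, the lists and the tests were chosen with earlier results of these data known. Named were, among called genes without overlap, the 12 largest rises and 12 largest falls with securinine, the called genes or the 6 lowest p with 16F16, the 6 largest called differences each way between the compounds, the 8 genes of highest mean, their partners, pairs called in both genes and up to 4 genes of each list. Partners called alone were added after their values were seen. Alternatives were all probe sets as tests, the mean of a gene's probe sets, an intensity trend, genes at 4 or more only, median centring, quantile normalization, the 4 arrays of the groups compared, a replicate block, and each array left out. NQO1 is not reported here.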

Additional observations from a re-analysis of the deposited data

How the results depend on the processing

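Calls below are given as higher and lower, in the order antisense genes, then partners. Shares of all named genes called under each alternative are not given here, so the shifts cannot be set beside those of all genes. With securinine, where 23 and 23 and then 12 and 21 were called, testing all probe sets gave 9 and 7, then 3 and 14, and an intensity trend gave 28 and 27, then 24 and 32. Keeping genes at 4 or more gave 28 and 31, then 17 and 28, and the replicate block 17 and 17, then 6 and 18. Leaving out 1 array gave 7 to 19 and 3 to 21, then 0 to 10 and 10 to 20. With 16F16 (3 and 1, then 2 and 4), all probe sets, the 4 arrays alone, the replicate block and each array left out gave 0 in all (44 antisense genes and 45 partners had an unadjusted p under 0.05 in the limma fit of all 6 arrays). Those unadjusted counts made up 17.3% and 26.3%, beside 21.1% of all named genes. The trend gave 13 and 2, then 10 and 22, genes at 4 or more 11 and 2, then 4 and 12, and median centring left 1 partner higher. For 16F16 against securinine (12 and 7, then 10 and 6), all probe sets gave 0 in all, the trend 23 and 18, then 17 and 18, and genes at 4 or more 25 and 18, then 18 and 11. The 4 arrays gave 1 and 4, then 3 and 2, the replicate block 4 and 4, then 4 and 3, and leaving out 1 array 0 to 1 and 0 to 4, then 0 to 3 and 0 to 2. Testing all probe sets adjusts over more tests, and the causes of the other shifts were not tested. MAGI2-AS3 turned to -0.0309 (adjusted p = 0.90) and CIRBP to 0.0836 (adjusted p = 0.53) with the mean over probe sets. The quantile normalization kept every count within 1.5 times. The pairing by replicate number was not borne out, and the block leaves fewer degrees of freedom. No detection calls were used, so a low level cannot be told from background.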

Other observations

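A further 88 genes with related suffixes (-AS without a number, -DT for divergent transcripts, -IT for intronic transcripts and -OT for overlapping ones) had a mean of at least 4. With securinine 6 of them rose and 10 fell (18.2% called, near the 19.0% of all named genes). With 16F16 2 rose and 0 fell by limma (2.27% called, beside 1.5% of all named genes). An unadjusted p under 0.05 was found for 17 of the 88, beside 21.1% of all named genes. The comparison of 16F16 against securinine was higher in 8 and lower in 1 (10.2% called, beside 9.51%). N4BP2L2-IT2, an intronic transcript, measured 3.91 and 4.05 in mock, 5.40 and 5.46 with securinine, and 4.96 and 4.72 with 16F16. Its mock mean was 3.98, so it reached the level of 4 only through the treated arrays. The differences were 1.44 ± 0.11 with securinine and 0.86 ± 0.11 with 16F16, given as a description. ANP32A-IT1 rose by 0.75 ± 0.10 and 0.69 ± 0.10. TMCC1-DT fell by 0.96 ± 0.12 with securinine and was at -0.01 ± 0.12 with 16F16, and CNN3-DT fell by 0.90 ± 0.13 with securinine and was at -0.61 ± 0.13 with 16F16 (adjusted p = 0.077).

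GAS6-AS1 had probe sets that differed in size: the brighter was at 0.24 with securinine and the dimmer at 1.66, while its partner GAS6 fell by 0.46 ± 0.09.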
